A study of Mus musculus with 2 samples.

Results

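Tuft cells are rare chemosensory cells of the intestinal lining. In duodenal crypts, the pits where the stem cells lie, 127 of 7784 barcodes that passed a cell filter were taken as tuft cells. A barcode counted when it held at least 3 unique molecular identifiers (UMIs, each taken as 1 captured RNA molecule) summed over Dclk1, Trpm5 and Avil. These are a microtubule-associated kinase, a taste-type cation channel and an actin-bundling protein of the villin family, all in wide use as tuft cell markers. Limits on Chga plus Chgb, on Lyz1 plus Defa24 and on Clca1, Zg16 and Fcgbp were meant to leave out barcodes of enteroendocrine, Paneth and goblet cells. Of the 137 barcodes with 3 or more rule UMIs, the limits removed 10. The enteroendocrine limit took 2, the goblet limit took 8 and the Paneth limit took 0.

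The study prepared crypt cells from wild-type mice of 2 groups, labelled NT and ES. Its title concerns chronic stress and ageing of intestinal stem cells, and the group letters are not spelled out. Each group is 1 library made from the pooled crypts of 5 animals, so there is no replicate of a group and no p-value is given anywhere. The deposited barcodes end in 1 or 2, taken here to mark the libraries, and no label ties an ending to NT or ES, so library 2 is set against library 1 without a direction of treatment.

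Tuft cells sense luminal chemicals through a cascade shared with taste cells, in which a receptor activates a G protein and phospholipase C, calcium leaves internal stores, and Trpm5 opens. In the small intestine they answer succinate from parasites and some microbes by releasing Il25, leukotrienes and prostaglandins, which act on group 2 innate lymphoid cells. Interleukin 13 from those cells then drives stem cells to make more tuft and goblet cells. Pou2f3, a POU-domain factor, is required for tuft cells to form.

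Library 1 gave 52 tuft cells among 4057 kept barcodes, or 1.28% (95% exact Clopper-Pearson interval 0.959% to 1.68%). In library 2 there were 75 among 3727, or 2.01% (1.59% to 2.52%), so the intervals overlapped slightly. Among tuft cells with 10 or more rule UMIs the shares were 0.567% (0.360% to 0.849%) and 1.34% (0.997% to 1.76%), and there the intervals did not overlap. All intervals cover counting error only, and neither the spread between animals nor that between preparations could be measured. The members held a median of 11916 UMIs (range 665 to 53686) and 4107 genes, beside 11251 UMIs and 3525 genes in the other kept barcodes. Their median share of mitochondrial UMIs was 11.8%. The same barcode sequence occurred in both libraries 40 times, and 0 of these was a tuft cell. All 3 rule genes were seen in 88 members, 2 of them in 30 and only 1 in 9.

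The rule genes themselves show how the members were chosen and are given as a description. Dclk1 (chr3:55242364-55539068, plus strand, GENCODE M21 on GRCm38, the assembly also called mm10) stood at 414 CPM (UMIs of the gene per 1000000 UMIs of the set) in library 1 and 843 CPM in library 2, beside 1.72 CPM in the other kept barcodes. Trpm5 (chr7:143069153-143094642, minus strand) stood at 337 and 703 CPM, beside 2.79 CPM. Avil (chr10:127000709-127020994, plus strand) stood at 325 and 670 CPM, beside 3.31 CPM. The library 2 value was the larger for all 3. Their sum was 2.06 times as high in library 2 in tuft cells and 2.33 times in the other kept barcodes. There too all 3 were higher in library 2. Among tuft cells with 10 or more rule UMIs the sum was 1.26 times as high in library 2. The rule itself limited these UMIs in the other barcodes, so whether the difference was particular to tuft cells was not tested. Among kept barcodes, 7066 held 0 rule UMIs, 533 held 1 and 48 held 2. The 533 comprised 171 barcodes of library 1 and 362 of library 2. The part of this difference in rule gene levels in the tuft cell shares of the libraries was not tested.

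Genes that the rule did not use also set the members apart. A gene was called higher when its summed CPM was at least 4 times that of the other kept barcodes with the lower end of the 95% exact Poisson interval at 2 or more. It was called lower at a ratio of 0.25 or less with the upper end at 0.5 or less. Of 12048 genes with at least 100 UMIs, 216 were higher (1.79%) and 147 were lower (1.22%). The 216 include the 3 rule genes. Of the other 213, 149 were at least 4-fold higher in each library, and 29 had a ratio of 100 or more. Because the members were chosen from these same barcodes on transcripts of the same cells, these counts describe them and test nothing.

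**Figure D1:**
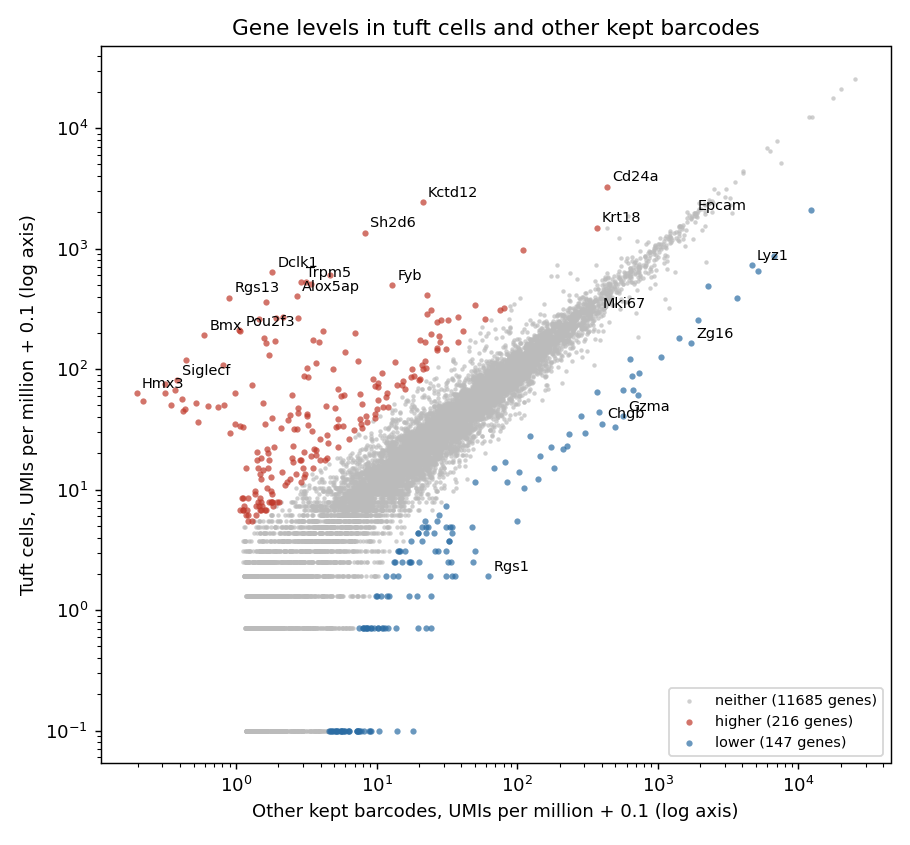
Level of each of the 12048 genes in tuft cells (vertical axis) against all other kept barcodes (horizontal axis), in CPM plus 0.1 on log axes. Red points are the 216 genes called higher, blue points the 147 called lower, and grey points the rest. Epcam lies on the diagonal, Kctd12, Sh2d6 and Rgs13 lie far above it, and Rgs1, Gzma and Zg16 lie below it.

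The label was checked on regulators of the lineage, pooled over all members. Of the UMIs of Pou2f3, Spib, Hmx2, Hmx3 and Gfi1b, 909 came from the 43 members with 20 or more rule UMIs. The 30 members with 10 to 19 gave 184 and the 54 with 3 to 9 gave 103. The pooled values thus mainly describe members with many rule UMIs and do not check the label for those with few. Pou2f3 (chr9:43123939-43210369, minus strand) stood at 127 CPM in the tuft cells of library 1 and 279 CPM in those of library 2, beside 0.965 CPM in the other kept barcodes, a ratio of 214 (169 to 273). It was seen in 55.9% of tuft cells. In T cells, which should lack it, 0.555% of barcodes had a UMI, although their median depth was lower at 2825 UMIs. In goblet cells, at a median of 9945.5 UMIs, the share was 1.38%. Spib, an ETS-family factor known from B cells, was 233-fold higher (194 to 282) at 229 and 480 CPM. The homeobox genes Hmx2 and Hmx3 were 296-fold (182 to 504) and 652-fold higher (330 to 1465). Gfi1b, a zinc finger repressor, had too few UMIs over all barcodes for the rule, with 50 in tuft cells and a ratio of 157 (89.8 to 285). The gene 1810046K07Rik, whose product is a coactivator of Pou2f3, was 51.4-fold higher (43.7 to 60.5). Runx1, Nfatc1 and Sox4 were higher by 20.7, 4.98 and 4.01 times. Of 20 transcription factors listed, 17 were measured, 8 were higher and 0 lower, with a median log2 ratio of 1.90 beside 0.06 over all genes measured. Atoh1, the factor that opens the secretory lineage, was not higher, at 19 and 2.31 CPM beside 28.5 CPM.

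Pou2f3 belongs to the POU family, whose members bind the octamer ATGCAAAT, so RefSeq promoters (250 bases before to 50 after the start site, GRCm38.p6) were searched for it on both strands. It stood in 570 of 32851 promoters (1.74%), and 1.74% of the measured genes with a promoter in the table had one. Of the 216 genes called higher, 171 had a promoter in the table and 9 of these held the octamer (5.26%). Among the 147 called lower it was 1 of 96 (1.04%). Of the 9 genes called higher that held it, Cables2, Ly6g6d, Pfkfb3, Sfxn5 and Zfp428 are not shown. The windows below are those of 2 of the 30 highest genes, Hpgds and Kctd12, of the coactivator gene and of Nradd, a gene of the tuft-1 list. They are printed in the direction of the gene, with the octamer in capitals, which reads ATTTGCAT where it lies on the opposite strand.
Hpgds, chr6:65144887-65144914, minus strand: tttactctttATGCAAATacgttggact
Kctd12, chr14:102982764-102982823, minus strand: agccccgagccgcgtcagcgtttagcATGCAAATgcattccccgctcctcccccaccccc
1810046K07Rik, chr9:51328971-51329030, minus strand: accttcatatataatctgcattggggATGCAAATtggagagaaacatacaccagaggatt
1810046K07Rik, chr9:51328940-51328999, minus strand: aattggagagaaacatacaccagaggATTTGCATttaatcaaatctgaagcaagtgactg
Nradd, chr9:110624562-110624621, minus strand: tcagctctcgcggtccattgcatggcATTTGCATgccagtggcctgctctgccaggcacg
The 1810046K07Rik windows overlap and hold 1 octamer on each strand. For Hpgds, GENCODE M21 has a start site further upstream than RefSeq, and the octamer falls just inside that gene model. These are matches of letters and were not tied to binding of any factor.

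The taste cascade was present in part. Plcb2, the phospholipase C of taste cells (chr2:118707517-118728438, minus strand), stood at 125 and 234 CPM beside 1.49 CPM, a ratio of 122 (99.5 to 150). Rgs13, a regulator that switches G proteins off, was 493-fold higher (387 to 636) at 285 and 488 CPM, and led all genes by the lower end of its interval. Gng13, the G protein gamma subunit of taste cells, had 54 UMIs in 25.2% of tuft cells and a ratio of 254 (134 to 521). For the release of stored calcium, Itpr2 was 28.8-fold higher (25.2 to 32.9), whereas Itpr3, the receptor of taste cells, was at a ratio of 1.05 (0.865 to 1.27). The taste G protein alpha subunit gustducin, encoded by Gnat3, had 3 UMIs, all in library 1. Of the sweet and umami receptors, Tas1r1 and Tas1r2 had 0 UMIs in the members and Tas1r3 had 6, in 3.94% of them. A count of 0 over 127 tuft cells allows a UMI in up to 2.36% of such cells, which does not limit the share of cells that express the gene. Of 16 genes listed, 6 were measured, 3 were higher and 0 lower.

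Receptors for luminal and immune signals differed in how many tuft cells showed them. Sucnr1, the succinate receptor, had 13 UMIs in 11 tuft cells (8.66%, interval 4.40% to 15%), 3 in library 1 and 8 in library 2. It had 0 UMIs in the other 7657 barcodes. Set against a floor of 3 counts over that whole group, its ratio was 244, which leaves out the counting error of its own 13 UMIs. Ffar3, a receptor for short-chain fatty acids, stood at 32.9 and 97.1 CPM and was 248-fold higher (160 to 400). Its relative Ffar2 was lower, at a ratio of 0.179 with 4 UMIs. Vmn2r26, a vomeronasal-type receptor, had 7 UMIs in 5 members. Of the cytokine receptors, Il17rb, a subunit of the Il25 receptor, was 35.7-fold higher (26.9 to 47.1), Il13ra1 was 6.88-fold higher (6.30 to 7.51), and Il4ra at 3.30 (2.43 to 4.41) did not reach the rule. Siglecf, a sialic acid receptor known from eosinophils, was 291-fold higher (190 to 461), and Cd300lf, a receptor used by murine norovirus, was 126-fold higher (85.3 to 189). Cd24a, a surface glycoprotein, was 7.54-fold higher (7.33 to 7.75) at 2133 and 4305 CPM. In the single comparison sets it ranged from 205 CPM in T cells to 1336 CPM in Paneth cells. Kit, a growth factor receptor also made by mast cells, was 8.57-fold higher (7.54 to 9.71) than in the mixed other barcodes. It had a UMI in 44.9% of tuft cells and in 44.1% of goblet cells, so that share did not set the 2 apart. Of 20 receptors listed, 14 were measured, 6 were higher and 1 lower.

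The enzymes that make leukotrienes and prostaglandin D were among the genes most set apart. Alox5 (chr6:116410077-116461178, minus strand), which starts leukotriene synthesis, stood at 198 and 320 CPM beside 1.36 CPM, a ratio of 192 (157 to 236). Its activating protein Alox5ap was 155-fold higher (134 to 181), and Ltc4s, which makes leukotriene C4, was 30.7-fold higher (25.5 to 36.8). Ptgs1, the constitutive cyclooxygenase, was 352-fold higher (219 to 597), whereas Ptgs2, the inducible form, had 2 UMIs in the members. Hpgds, the hematopoietic prostaglandin D synthase, stood at 174 and 345 CPM and was 145-fold higher (121 to 174). Pla2g4a, the phospholipase that frees arachidonic acid, was 9.22-fold higher (8.29 to 10.2). By contrast Lta4h, which makes leukotriene B4, was at 0.865 (0.768 to 0.971). Of 15 genes listed, 9 were measured, 6 were higher and 1 lower, with a median log2 ratio of 4.94.

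The known secreted signals of tuft cells were sparse. Il25 had 12 UMIs in 10 tuft cells (7.87%, interval 3.84% to 14.0%), 4 in library 1 and 6 in library 2, and 0 UMIs in the other kept barcodes. Set against a floor of 3 counts over those barcodes, its ratio was 226, which leaves out the counting error of its own 12 UMIs. Chat, which makes acetylcholine, had 43 UMIs in 31 tuft cells (24.4%, interval 17.2% to 32.8%) and 2 UMIs in all others. Those 31 comprised 8 cells of library 1 and 23 of library 2. The vesicular acetylcholine transporter Slc18a3 and the choline transporter Slc5a7 had 0 UMIs in tuft cells and in the others. Tslp had 5 UMIs in 5 members. Among 11 type 2 cytokines and their brakes, 8 were measured and 0 passed the rule in either direction.

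Genes listed under leukocyte-type signalling formed a further group. Bmx, a Tec-family kinase (chrX:164192842-164258193, minus strand), was 386-fold higher (283 to 538), and the adaptors Sh2d6 and Sh2d7 were 166-fold (153 to 181) and 345-fold higher (237 to 519). Fyb, an adaptor of T cells, Vav1, a guanine nucleotide exchange factor, and Inpp5d, an inositol phosphatase, were 38.7-, 43.9- and 27.1-fold higher. Of 24 such genes, all measured, 13 were higher and 2 were lower, Coro1a and Tyrobp. The median log2 ratio was 2.59.

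The leukocyte group was set beside T cells in the same libraries, 541 barcodes with at least 2 UMIs of the CD3 genes. Bmx had 1 UMI there (0.364 CPM). Sh2d6 stood at 6.55 CPM there, beside 854 and 1804 CPM in the tuft cells of library 1 and library 2. Fyb was at 309 CPM in the T cells and 494 CPM in the tuft cells, and Inpp5d at 76.7 and 85.2 CPM, so both sets held these transcripts. Ptprc, which encodes the pan-leukocyte protein CD45, was at 1343 CPM in the T cells and 12.1 CPM in the tuft cells, where 14 cells (11%) had a UMI. The goblet cells, which should lack Ptprc, had a UMI in 2.65% of barcodes at a lower median depth. Rac2 showed 782 CPM in T cells and 104 CPM in tuft cells, and Coro1a 479 and 1.21 CPM. Each of the 14 tuft cells with Ptprc had at least 13 rule UMIs. A CD3 UMI was found in 13 tuft cells and 2 or more in 1.

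**Figure D2:**
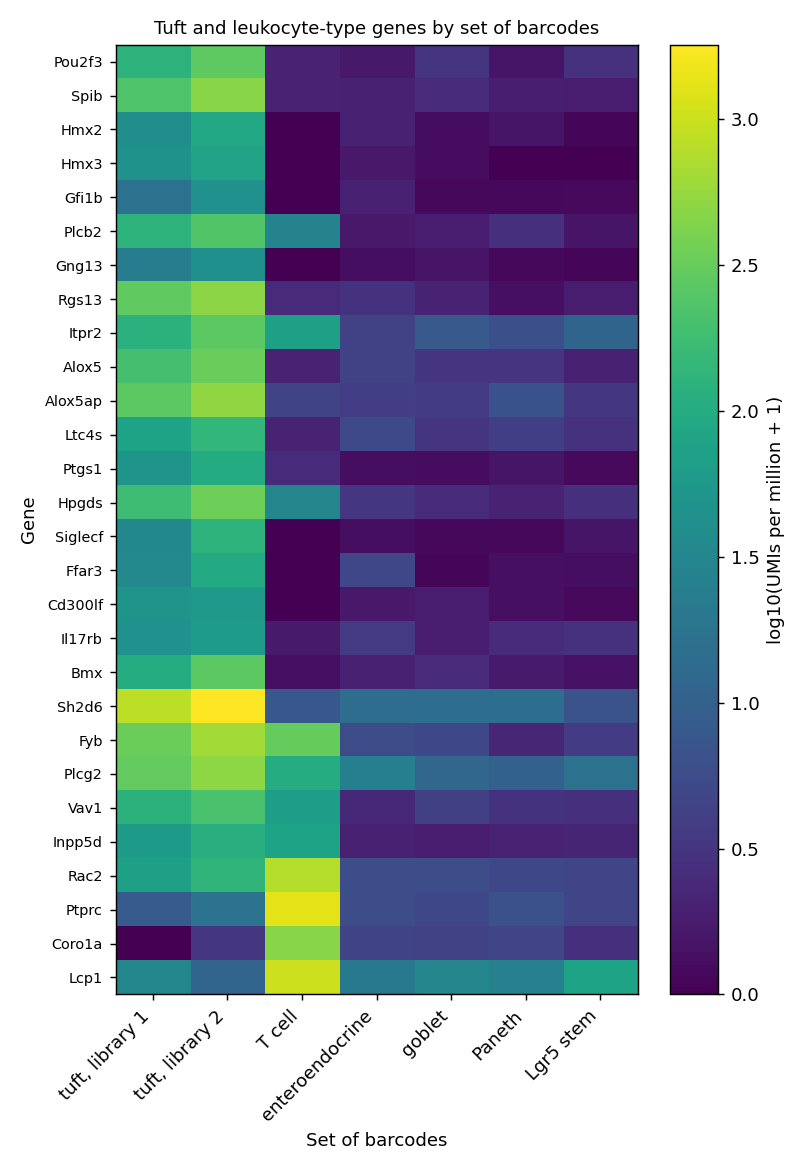
Level of 28 genes (rows) in 7 sets of barcodes (columns), as log10 of CPM plus 1, from dark for 0 to yellow for the highest. The 2 tuft cell columns, 1 for each library, are bright for the regulators, the eicosanoid enzymes and Sh2d6, whereas Ptprc, Coro1a and Lcp1 are bright only in the T cell column.

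Summed over each set, markers of other cell types differed in how low they were. Of the 11 T cell markers, 10 were lower, with a summed level of 114 CPM in library 1 and 125 CPM in library 2 beside 1389 CPM in the others. All 9 measured Paneth markers were lower, at 3989 and 4849 CPM beside 29697 CPM, and 15 of 18 measured alpha-defensin genes were lower. Enteroendocrine markers were lower for 11 of 13. Of 10 goblet markers, 4 were lower, at 3103 and 1868 CPM in library 1 and library 2 beside 10229 CPM. Of the 12 enterocyte markers 1 was lower, and of the 10 stem cell markers 0. These lists summed to 2314 CPM beside 4563 CPM for the enterocyte list and 2940 CPM beside 3460 CPM for the stem cell list. Part of this is fixed by the limits of the rule, which used Chga, Chgb, Lyz1, Defa24, Clca1, Zg16 and Fcgbp. The other kept barcodes also include the Paneth, goblet, T and enteroendocrine cells themselves. The median barcode with 0 rule UMIs held 43.5 Paneth, 15 goblet and 14 enterocyte marker UMIs. In members with 10 or more rule UMIs these medians were 40, 14 and 8. For T cell and enteroendocrine markers the median was 1 UMI in both sets. Apart from the enterocyte list, a typical member was thus hardly lower than a typical other barcode for these lists. The 10 lowest genes by the upper end of the interval were Rgs1, at 0.0292 (0.00603 to 0.0855), Mptx2, Gzma, Defa29, Cd7, Zg16, Chgb, Defa38, Clca1 and Defa40. Of the mast cell markers only Kit was measured, and Cpa3, Mcpt1, Mcpt4, Tpsb2, Cma1 and Fcer1a had 0 UMIs. Among the myeloid markers 8 of 10 had 0 UMIs, Lyz2, Adgre1 and Csf1r included. Epithelial genes stood as in the other barcodes, with Epcam at 1925 and 1834 CPM beside 1744 CPM, and 0 of 10 passed the rule.

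Structural genes were higher only in part. Espn, which bundles actin in microvilli, was 12.5-fold higher (11.2 to 13.8), Tuba1a 16-fold (13.5 to 18.7), Krt23 7.43-fold and Krt18, a keratin stained as a tuft cell marker, 4.06-fold (3.90 to 4.23). Vil1, the villin of the brush border, was at 1.02 (0.946 to 1.10), and Actb at 1.04 (1.02 to 1.07). In total 7 of 22 measured genes of this list were higher and 0 lower. Of the neuronal and vesicle genes, Nrep and Nradd were higher, at 50.9 and 5.64 times, and 2 of 15 were lower, Syt7 and Scg2, the latter at 0 UMIs in tuft cells. The other genes among the 30 highest included Kctd12, an auxiliary subunit of GABA-B receptors, at 1554 and 3201 CPM and 114 times (108 to 120), Pik3r5 and Pik3cg, both subunits of a phosphoinositide 3-kinase, at 221 and 100 times, and Nrgn at 95.2 times. All 30 were at least 4-fold higher in each library.

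For 2 short sets of tuft cell genes, the threshold of 3 rule UMIs fell on a slope and not at a step. Summed over Pou2f3, Spib, Hmx2, Hmx3 and Gfi1b, which the rule did not use, barcodes with 0, 1 and 2 rule UMIs stood at 2.55, 3.58 and 12.6 CPM. Members with 3 rule UMIs, just inside, stood at 19.4 CPM (12 barcodes), and just outside, at 2, there were 48 barcodes. From there the sum went through 151 CPM at 4 to 5 (17 barcodes), 227 at 6 to 9 (25) and 532 at 10 to 19 (30) to 1791 CPM at 20 or more (43). The leukotriene and prostaglandin genes Alox5, Alox5ap, Ltc4s, Ptgs1 and Hpgds took the same course, from 8.54 CPM at 0 over 61.5 at 3 to 2567 CPM at 20 or more. None of the 5 transcription factors had a UMI in 22 members, and 21 of these had 3 to 9 rule UMIs. Over the full lists, levels changed much less from 0 to 3 rule UMIs. With 0, 1, 2 and 3 rule UMIs the full transcription factor list stood at 519, 502, 378 and 621 CPM. The taste list stood at 459, 454, 495 and 472 CPM, and the eicosanoid list at 306, 307, 371 and 375 CPM. At 20 or more these lists reached 4396, 2660 and 3271 CPM.

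**Figure D3:**
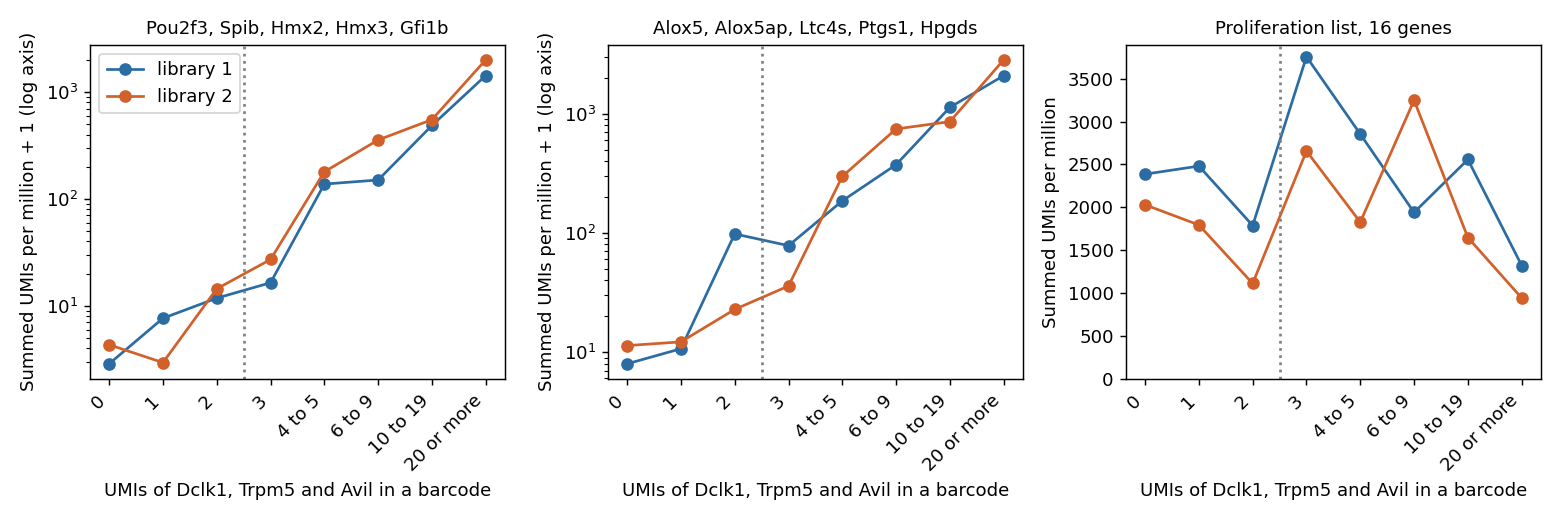
Summed CPM (vertical axes, the left and middle panels plus 1 on log axes) in barcodes grouped by their UMIs of Dclk1, Trpm5 and Avil (horizontal axes), for library 1 (blue) and library 2 (orange). The dotted line marks the threshold. From 3 rule UMIs on, both tuft cell gene sets increase with every bin in both libraries, and the 16 proliferation genes in the right panel are lowest at 20 or more rule UMIs among the members of each library.

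Proliferation transcripts were higher in members with few rule UMIs, where the 5 transcription factors were low. Those factors stood at 19.4 CPM with 3 rule UMIs, beside 12.6 CPM with 2 and 1791 CPM with 20 or more. Whether the members with few rule UMIs are tuft cells was not tested. The 16 genes of the proliferation list summed to 3348 CPM in members with 3 rule UMIs, 2494 at 4 to 5, 2432 at 6 to 9, 1909 at 10 to 19 and 1082 CPM at 20 or more, beside 2220 CPM in barcodes with 0. At least 20 proliferation UMIs per 10000 were held by 24 of 54 members with 3 to 9 rule UMIs and by 12 of 73 with 10 or more. Mki67, a protein of cycling cells, was at 442 CPM in the first set and 169 CPM in the second in library 1, and at 400.3 and 161 CPM in library 2. Top2a, a topoisomerase of dividing cells, was at 352 and 272 CPM in library 1 and at 522 and 132 CPM in library 2. Over the 127 members, rule UMIs per 10000 and proliferation UMIs per 10000 had a Spearman correlation of -0.58, a description, since both values come from the same cells and share their depth.

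**Figure D4:**
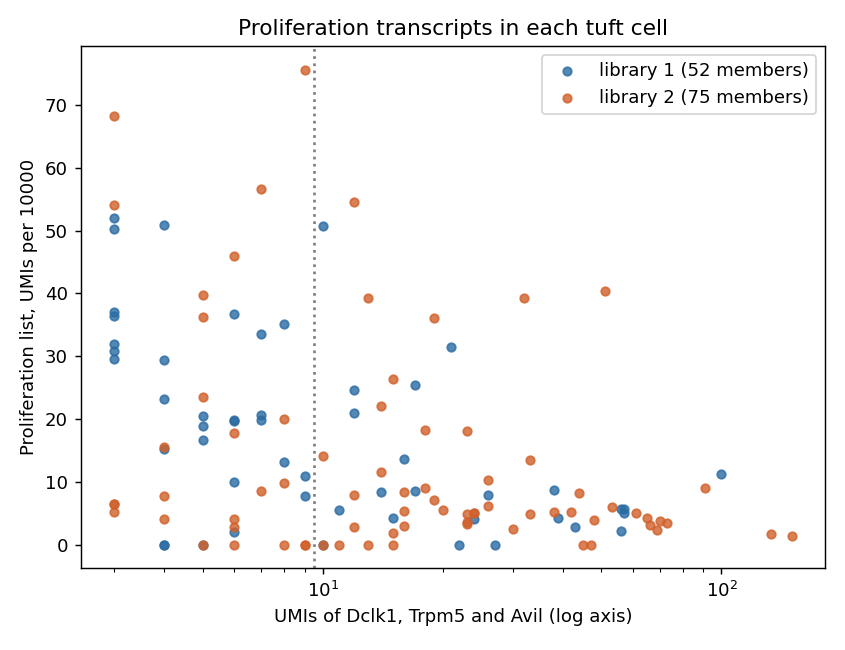
Proliferation transcripts in each of the 127 members, in UMIs of the 16 genes per 10000 UMIs (vertical axis). The horizontal log axis gives the member's UMIs of Dclk1, Trpm5 and Avil, for library 1 (blue) and library 2 (orange). The dotted line parts the 54 cells with 3 to 9 rule UMIs from the 73 with 10 or more. Values over 20 are common on the left and few on the right.

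Transcripts of neighbouring lineages differed by rule UMIs in library 1 and less evenly in library 2. Olfm4, a secreted stem cell protein, was at 2797 CPM with 3 to 9 rule UMIs and 1412 CPM with 10 or more in library 1, and at 1198 and 704 CPM in library 2. The 10 goblet markers summed to 4204 and 1136 CPM in library 1, but to 1869 and 1867 CPM in library 2. Agr2, a secretory disulfide isomerase, was at 960 and 70.6 CPM in library 1, where a single member held 35.8% of all Agr2 UMIs of the tuft cells, and at 122 and 165 CPM in library 2, the other direction. Spink4, a goblet cell peptide, was at 644 and 77.6 CPM in library 1 and at 217 and 216 CPM in library 2. Of the 17 UMIs of Atoh1 in tuft cells, 13 came from library 1 cells with 3 to 9 rule UMIs, and 35.3% of the 17 from 1 cell. The enterocyte list stood at 1235 CPM with 3 to 9 rule UMIs and 1242 CPM with 10 or more in library 1, and at 4353 and 2751 CPM in library 2. The Paneth list, pooled over the libraries, stood at 4526 and 4357 CPM. Depth differed between these sets in opposite directions, with medians of 15918 and 9323 UMIs in library 1 and 7188 and 11697 in library 2, and its part in these values was not tested.

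Tuft cells of the mouse small intestine have been sorted into a tuft-1 type rich in neuronal genes and a tuft-2 type rich in immune genes. Of 8 tuft-1 genes 5 of the 6 measured were higher, with a median log2 ratio of 4.41, and of 12 tuft-2 genes 6 of the 9 measured were higher, with a median of 7.87. Within the members the summed tuft-1 genes ranged from 0 to 73.7 UMIs per 10000 with a median of 9.06, and the tuft-2 genes from 0 to 136 with a median of 17.7. The sums went together, with a Spearman correlation of 0.55 over 127 cells, 0.59 over the 109 cells that could be thinned to 2000 UMIs (the 18 shallower cells left out), and 0.20 over the 73 cells with 10 or more rule UMIs. The sums rest on few UMIs per cell, and the members were not divided into types.

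Between the libraries, a gene was called different in tuft cells at a ratio of at least 1.5 in either direction with an interval that left out 1. Of 5757 genes with 50 or more UMIs in the members, 704 were higher in library 2 (12.2%) and 356 lower (6.18%). The tuft cells of library 2 held more rule UMIs, with a median of 15 beside 8, and 50 of its 75 members had 10 or more, beside 23 of 52 in library 1. The comparison was therefore also made among members with 10 or more rule UMIs, where 254 of 3591 genes were higher (7.07%) and 154 lower (4.29%).

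Counts for the tuft cell genes depended on which members were compared. All 14 measured leukocyte-type genes were higher in library 2 over all members, with a median log2 ratio of 0.91, and 2 of 14 among the members with 10 or more rule UMIs, with a median of 0.17. The eicosanoid list went from 6 of 8 higher to 0 of 7, and the transcription factors from 10 of 16 to 3 of 13, with 1 lower. Plcb2 stood at 125 and 234 CPM over all members, and at 314 CPM in each library among those with 10 or more rule UMIs, a ratio of 1 (0.771 to 1.30). Siglecf was still higher, at 77.6 and 188 CPM, a ratio of 2.42 (1.52 to 4.02), and Bmx at 1.62 (1.23 to 2.15).

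Interferon-induced genes were higher in the tuft cells of library 2. All 11 measured genes of the list passed over all members, with a median log2 ratio of 2.35, and 9 of 9 among members with 10 or more rule UMIs, with a median of 2.12. Oasl2, an antiviral protein related to oligoadenylate synthetases, stood at 30.4 and 263 CPM, a ratio of 8.64 (5.66 to 13.8). Rtp4, a receptor transport protein, stood at 7.60 and 78.6 CPM, 10.3 (4.52 to 29.2), and Parp14, an ADP-ribosyltransferase, at 5.07 and 72.9 CPM, 14.4 (5.35 to 54.4). Stat2 and Irf7, which carry the interferon signal to the nucleus, were 5.52-fold (3.53 to 8.99) and 6.39-fold higher (3.77 to 11.6). Ifi44 had 0 UMIs in library 1 and 27 in library 2. This list was also higher in library 2 in the other kept barcodes, for 24 of 24 measured genes with a median log2 ratio of 1.83, so it was not particular to tuft cells, and whether it differed in size between them and the rest was not tested. Of the MHC class I genes, 6 of 8 measured were higher, H2-D1 at 496 and 1152 CPM and B2m, the light chain, at 693 and 1066 CPM. Their median log2 ratio was 0.83. In the other kept barcodes 11 of 13 were higher in library 2, with a median of 0.78, so this list was not particular to tuft cells either.

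**Figure D5:**
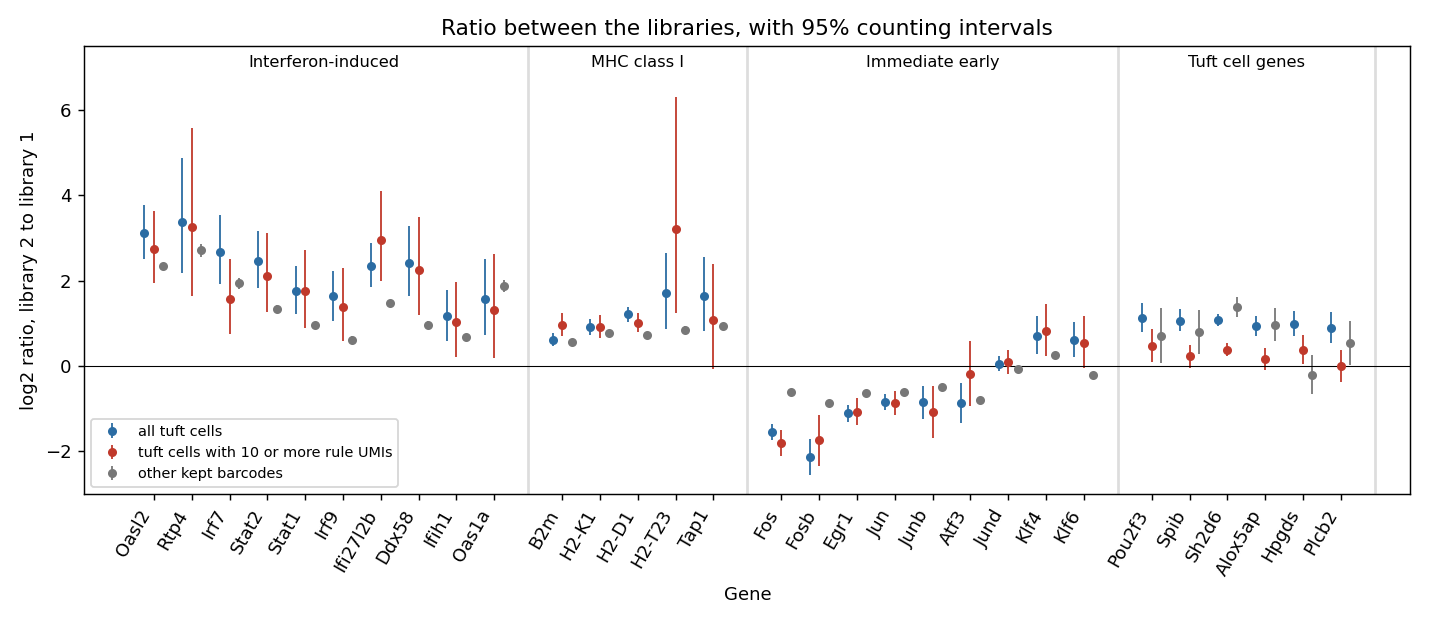
Ratio of library 2 to library 1 as log2 (vertical axis) for single genes (horizontal axis) in all tuft cells (blue), tuft cells with 10 or more rule UMIs (red) and the other kept barcodes (grey), with 95% counting intervals as bars. Interferon-induced genes lie above 0 in all 3 sets, Fos, Fosb, Egr1, Jun and Junb lie below 0, and the tuft cell genes lie near 1 in all tuft cells and nearer to 0 in those with 10 or more rule UMIs.

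Immediate early genes, which respond within minutes to stimuli and also to tissue dissociation, were mostly lower in library 2. Of 13 measured, 9 were lower and 2 higher, with a median log2 ratio of -0.85, and -0.77 with 10 or more rule UMIs. Fos stood at 1022 and 352 CPM, a ratio of 0.344 (0.300 to 0.393), and Fosb at 303 and 69.4 CPM, 0.229 (0.170 to 0.305). In the other kept barcodes these ratios were 0.653 and 0.548. Of this list, 10 of 17 measured genes were lower there in library 2 and 0 higher, with a median log2 ratio of -0.62. The direction was thus not particular to tuft cells. In tuft cells Ccn1, a matricellular protein, was also among the 5 lowest, at 60.8 and 6.94 CPM.

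Single cells carried a large share of some of the remaining differences. Papss2, which makes the sulfate donor PAPS, and Clec2e, a C-type lectin-related protein, were 7.47-fold (5.00 to 11.6) and 10.7-fold higher (4.66 to 30.0) in library 2, with 34.7% and 34.2% of their UMIs in 1 cell. Ccl9, a chemokine, and Agr2 were lower in library 2 over all members, at 0.140 (0.0739 to 0.248) and 0.235 (0.192 to 0.285). Among members with 10 or more rule UMIs the direction of Agr2 turned, to 2.34 (1.43 to 4), whereas Ccl9, with an interval that held 1, was at 1.66 (0.427 to 9.37). For Ccl9, 1 cell of library 1 held 43.8% of the UMIs.

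Enterocyte markers also differed between the libraries in tuft cells. Of 9 measured, 8 were higher in library 2, with a median log2 ratio of 1.60, and 1.24 with 10 or more rule UMIs. At 20 or more rule UMIs the summed list was at 873 CPM in library 1 and 1009 CPM in library 2, whereas at 10 to 19 it was at 1931 and 5031 CPM. The 5031 CPM came from 1242 UMIs in 20 barcodes, of which the median barcode held 10. Anpep, a brush border peptidase, stood at 176 and 745 CPM, and Apoa1, an apolipoprotein, at 65.9 and 333 CPM, with 28.8% of the Apoa1 UMIs in 1 cell. The summed list stood at 1237 CPM in library 1 and 3297 CPM in library 2, beside 3953 and 5198 CPM in the other kept barcodes. The T cell marker sum was 114 and 125 CPM and the Paneth sum 3989 and 4849 CPM. Their part in the differences between the libraries was not tested. The stem cell list was lower in library 2, for 5 of 9 measured genes, with Olfm4 at 2299.9 and 872 CPM.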

How the data were processed

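The authors deposited raw counts, UMIs per gene and barcode in 1 matrix for both libraries. The submitters' processing notes name Cell Ranger 2.1.1 and mm10. The way cells were told from empty droplets is not stated in the labels. Per the labels, libraries came from a 10x Genomics droplet kit, whose barcodes are shorter than those in the files, so the chemistry is not settled. Of 12756 barcodes, those with at least 500 genes and at most 25% mitochondrial UMIs were kept. Counts of the same symbol were merged, giving 31205 symbols from 31253 features, of which 99.5% are in GENCODE M21. No doublet caller was applied and no doublets were removed. UMIs were summed per set and scaled per 1000000 with no further normalization. Ratios carry exact conditional Poisson intervals and shares exact Clopper-Pearson intervals, at 95%, from counting error only. The design holds 1 library per group, so no test was made, and no label maps a barcode ending to NT or ES. The comparison sets among barcodes outside the rule were enteroendocrine (Chga plus Chgb at least 5 UMIs), goblet (Clca1, Zg16 and Fcgbp at least 0.5% of UMIs), Paneth (Lyz1 plus Defa24 at least 5%), T cells (CD3 genes at least 2 UMIs) and stem cells (Lgr5 at least 2 UMIs).

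The members and gene lists were chosen with earlier results of these data known. The named genes were the 30 highest and 10 lowest by the end of the interval nearest to 1 (the 3 rule genes left out), all members of the tuft cell lists, up to 4 members with most UMIs of other lists, and between libraries the 5 highest and 5 lowest. Other genes named (Syt7, Scg2, Mki67, Top2a, Spink4, Krt23, Espn and further members of the marker lists) were picked after their values were seen. Not every gene of these lists is reported here. The gene ratios and calls were checked on simulated Poisson counts, the model that the intervals assume. Such counts hold no extra spread between cells, so this check cannot speak for genes with many UMIs in 1 cell. Alternatives changed the rule UMIs, the limit on mitochondrial UMIs, the filter on low counts, the thinning to 2000 UMIs, the averaging and the libraries used. Python 3.11.15, numpy 2.4.6, pandas 2.3.3, scipy 1.17.1 and matplotlib 3.10.9 were used.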

Additional observations from a re-analysis of the deposited data

Results flagged for a closer look

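Barcodes outside the cell filter held tuft cell transcripts. Of 4972 barcodes that failed it, 112 had 3 or more UMIs of Dclk1, Trpm5 and Avil, 37 in library 1 and 75 in library 2. The limit on mitochondrial UMIs was exceeded by 110 of them, and 17 had under 500 genes. Their median was 1793 UMIs with 36.1% mitochondrial. Sh2d6, which the rule did not use, stood at 3931 CPM in them and 16.8 CPM in the 4860 other barcodes that failed. Pou2f3 stood at 173 and 1.72 CPM, and Alox5ap at 774 and 4.37 CPM. They are flagged as a signal in data that the comparisons did not use.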

How the results depend on the processing

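The number of tuft cells followed the rule. At least 2, 5 or 10 rule UMIs gave 2.11%, 1.36% and 0.938% of kept barcodes (1.63% as reported), the last being 73 cells. A mitochondrial limit of 15% gave 1.32%, and no limit gave 222 cells, or 1.98%. The genes called higher (216 as reported) numbered 368 at 10 or more rule UMIs, 97 in library 1 alone, 142 after thinning each barcode to 2000 UMIs, 363 with means of per-cell shares and 434 with no filter on low counts. Those called lower (147 as reported) numbered 85 after thinning, 84 against barcodes without Ptprc UMIs and 844 with per-cell means. Genes of the 9 tuft cell lists called higher, 39 as reported, were 25 in library 1 alone. Between libraries, genes higher in library 2 (704 as reported) numbered 423 with a filter at 100 UMIs and 50 after thinning, which leaves fewer UMIs per cell. Those lower (356 as reported) numbered 204 and 62 under these, 194 with at least 5 rule UMIs, 187 without the 10% of members with the most UMIs and 867 with per-cell means. The comparison with 10 or more rule UMIs, chosen after seeing the data, gave 254 and 154. Of 504 list medians under the alternatives, 181 moved by more than the spread between the libraries and 42 had the other sign. Of the 42, 1 was of a list with a median of at least 1 in size. This was the stromal and endothelial list, which went from -1.42 over 2 measured genes to 2.495 with no filter. Genes with 0 UMIs were set to a floor of 3 counts, and 8 of the 10 genes of that list had 0 UMIs in the members. Both values thus depend on that floor. Of 64 list medians between libraries, 28 moved by more than 0.2 and 0 of at least 1 in size changed sign. For the 30 highest genes, the 540 ratios under alternatives ranged from 44.3 to 1567, and 140 lay outside the interval of the value as reported. Apart from that floor, and from fewer UMIs where cells were thinned or left out, the causes were not tested.

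No paired analysis was possible because each group is 1 library and no replicate numbers exist. Limits of these data are the small number of tuft cells, the pooling of animals, and sparse counts, which leave Il25, Sucnr1 and Gnat3 with few UMIs.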
